A study of Taeniopygia guttata with 5 samples.

Results

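Neurotransmitter receptors and the scaffold proteins that hold them at the synapse were examined in the RNA-Seq data from HVC and whole brain (WB) of male zebra finches. HVC is a pallial nucleus of the song control circuit that times and drives learned song. The genes were taken by name from the 4 deposited tables, as every symbol beginning with a prefix of the GABA-A, glycine, ionotropic and metabotropic glutamate, nicotinic acetylcholine or P2X receptors, or with DLG, SHANK, HOMER, CRIPT, GRIP, GPHN or NETO. The symbols *GABRB1-2*, *GABRR1* and *GLRA2* were left out. This gave 33 of the 4675 transcripts listed in at least 1 table. They were 6 nicotinic receptor subunits, 5 GABA-A receptor subunits, 3 glycine receptor subunits, 2 P2X receptors, 5 entries for ionotropic glutamate receptors, 2 metabotropic glutamate receptors, 6 members of the DLG and DLGAP families, and 4 other scaffold or auxiliary proteins (*CRIPT*, *GRIP2*, *HOMER2* and *NETO1*). The name match did not separate function in 2 cases. *DLGAP5* encodes a protein of the mitotic spindle, and *DLG5* is a more distant relative of the synaptic DLG scaffolds.

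GABA-A and glycine receptors are pentameric chloride channels that usually inhibit mature neurons, and the choice of subunit sets their kinetics, location and drug response. AMPA and NMDA receptors carry fast excitation and are anchored at the postsynaptic density by DLG scaffolds, which are in turn joined to DLGAP, SHANK and HOMER proteins. Nicotinic and P2X receptors are cation channels opened by acetylcholine and ATP.

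The groups were HVC at 100 d, when birds are adult and song is learned (1 library), HVC at 45 d, when juveniles sing a variable song (2 libraries, with the run labels R92L1 and R92L2), WB at 100 d (1 library) and WB at 45 d (1 library). All birds were male and untreated, and brains were collected from birds that had neither sung nor heard song during the preceding watch. The 45 d birds were kept with their parents, and the 100 d birds, once separated, in group cages. Age and housing therefore cannot be told apart. Each HVC library pooled RNA of 4 birds and each WB library RNA of 2 birds, and HVC tissue may have held part of the overlying ventricular zone. Nothing in the sources used here says that both 45 d HVC libraries came from separate birds. The spread behind the p-values below is therefore that of 2 libraries and may be technical only. All HVC libraries carry the run label R92 and all WB libraries the run label R81, so tissue and run cannot be told apart.

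A table holds the top 1800 transcripts of 1 comparison, ranked by p-value, with raw reads for the libraries compared. A receptor gene outside the tables was not analysed here, and the members are therefore a selection of transcripts that tended to differ. Of the 33 members, 18 were in 1 table, 12 in 2 and 3 in 3, and 9 had reads for all 5 libraries. The listed reads summed to between 495316 and 1014565 per library. Levels are given below as normalised reads, which are raw reads divided by the size of the library relative to HVC at 100 d (0.907 for R92L1, 1.09 for R92L2, 1.51 for WB at 100 d and 1.81 for WB at 45 d). They are not scaled to transcript length and compare libraries, not genes. Because the samples are bulk tissue, fewer cells of a type and less RNA per cell cannot be told apart.

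The spread between the 45 d HVC libraries was taken first. Among the 18 members with at least 20 reads in the pair, 5 differed by more than 1.5-fold between R92L1 and R92L2 (27.8%), as did 629 of 2391 of all such transcripts (26.3%). The furthest apart was *P2RX5*, with 18 and 7 reads (3.09-fold), and the others were *CRIPT*, *CHRNA7*, *CHRNA4* and *GABRB1-1*, at 1.53-fold to 1.74-fold. Against counting error alone, at an unadjusted binomial p under 0.05, 10 of the 18 members differed within the pair (55.6%). So did 817 of the 2391 transcripts (34.2%). This p-value depends on read depth as well as on fold, and *NETO1*, with 1994 and 2927 reads, passed at 1.22-fold. These shares therefore do not show that the members stood further apart than other transcripts.

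The first question was which receptor and scaffold genes differ between HVC and WB. At 45 d, 8 of the 17 members tested passed an edgeR adjusted p of 0.1 (called below). Of these, *GABRE* and *CRIPT* were higher in HVC, and 6 were lower, among them *GABRA6*, *GLRA1*, *GLRA3*, *CHRNA4* and *DLG3*. Of all 1928 transcripts tested in this comparison 37.3% were called, 15.0% as higher and 22.4% as lower. At 100 d, 2 of the 10 members tested were called, *GABRE* as higher and *GLRA3* as lower, and 24.5% of all 1361 transcripts tested were called (10.7% higher and 13.8% lower). The median log2 fold change of HVC over WB was -0.96 over the members and -0.69 over all transcripts tested at 45 d, where 13 of the 17 members lay below 0. At 100 d it was 0.37 over the members and -0.42 over all transcripts, and 5 of the 10 members lay below 0. Above 0 were 4 members at 45 d and 5 at 100 d, against 44.8% and 45.8% of all transcripts tested. Different members were tested at each age, so these medians do not describe a change with age.

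**Figure D1:**
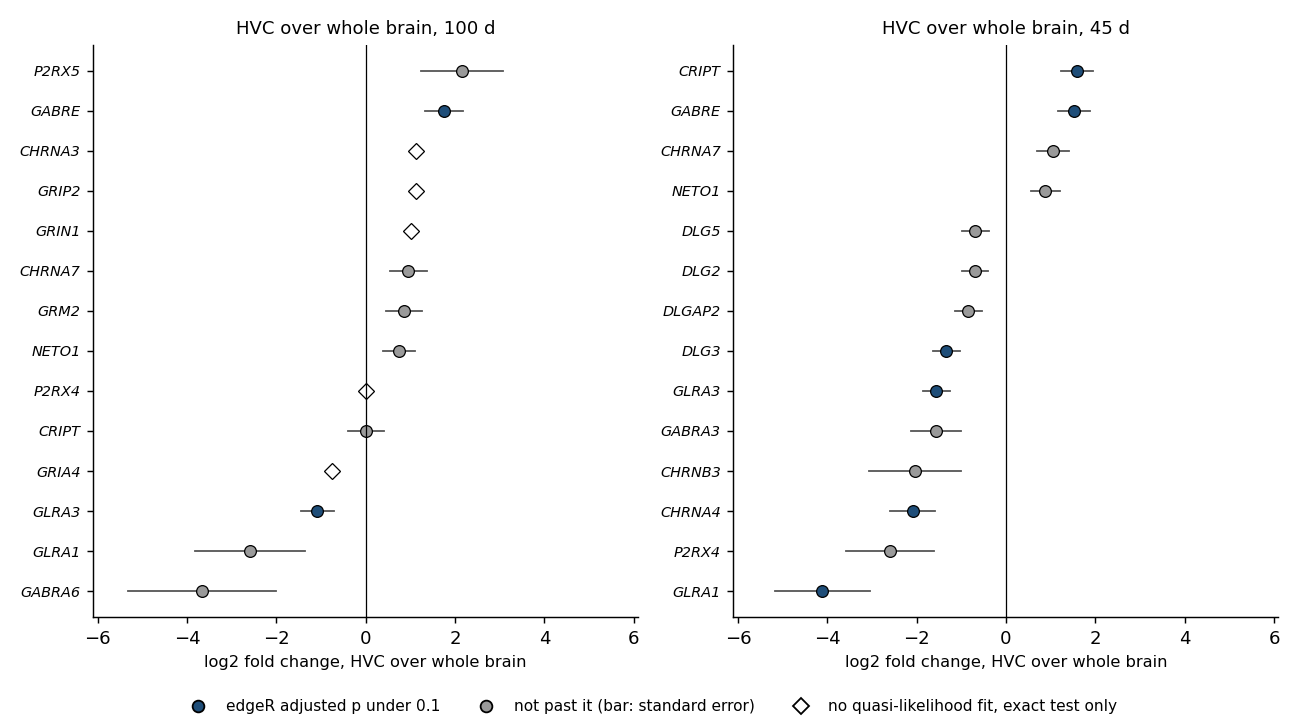
Log2 fold change of HVC over WB at 100 d (left) and 45 d (right) for members with reads in the libraries compared (circles: quasi-likelihood fit, bars: standard error, dark where called; open diamonds: members with reads but no such fit, placed at the fold change of edgeR's exact test, none called). Members with a group at 0 reads are left out (*GABRA6* at 45 d and *DLGAP3* at 100 d); *GABRE* lies right of 0 at both ages, at 1.76 and 1.53.

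Among the GABA-A receptor subunits, *GABRE* was higher in HVC at both ages and *GABRA6* lower at 45 d. *GABRE* (chromosome 4A, 19231043-19239970, taeGut1) encodes the epsilon subunit, which in mammals makes the receptor insensitive to benzodiazepines. It had 225 normalised reads in HVC at 100 d and 183 and 164 in HVC at 45 d, against 66.4 in WB at 100 d and 60.2 in WB at 45 d. All HVC libraries were thus above both WB libraries. The log2 fold change was 1.76 ± 0.42 at 100 d (SE, edgeR adjusted p = 0.00377) and 1.53 ± 0.36 at 45 d (SE, edgeR adjusted p = 0.00868). *GABRE* was the only member called as higher in HVC at both ages.

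*GABRA6* (chromosome 13, 12100790-12116833), whose alpha subunit is restricted in the mammalian brain mainly to cerebellar granule cells, had at most 1 read in any HVC library. It had 1 read in HVC at 100 d and 0 reads in each 45 d HVC library, against 21 reads in WB at 100 d and 32 reads in WB at 45 d. At 45 d it was 11.8-fold lower in HVC, taking a floor of 3 reads over both HVC libraries (edgeR adjusted p = 0.00468). The exact 95% counting interval of the ratio of HVC to WB at 45 d was 0 to 0.111. At 100 d the ratio of HVC to WB was 0.0718 with an exact 95% counting interval of 0.00174 to 0.446, and the call was not made (edgeR adjusted p = 0.411). Here and below such intervals cover counting error only.

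*GABRA3*, which encodes a further alpha subunit, had 13.2 and 13.8 normalised reads in the 45 d HVC libraries, against 40.3 in WB at 45 d, and was not called in the quasi-likelihood test (edgeR adjusted p = 0.118). It was called by the exact test and with no filter on low counts (edgeR adjusted p = 0.0356 and 0.0785). *GABRB1-1*, a beta subunit, was listed for HVC only. *GABRB1-1*, *GABRA3* and *GABRE* lie in this order on chromosome 4A, with gaps of 67.7 kb and 73.3 kb.

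Of the glycine receptor alpha subunits, *GLRA3* was lower in HVC at both ages and *GLRA1* at 45 d. *GLRA3* (chromosome 4, 34888568-34984808) had 284 normalised reads in HVC at 100 d and 234 and 164 in HVC at 45 d, against 603 in WB at 100 d and 584 in WB at 45 d. Its highest HVC library was below its lowest WB library. The log2 fold change was -1.09 ± 0.36 at 100 d (SE, edgeR adjusted p = 0.0972) and -1.56 ± 0.30 at 45 d (SE, edgeR adjusted p = 0.00113). At 100 d *GLRA3* was not called by edgeR's exact test (adjusted p = 0.275) or by limma-voom (adjusted p = 0.177). *GLRA1* (chromosome 13, 6374527-6412457), the main adult subunit of the mammalian spinal cord and brain stem, had 3 reads in HVC at 100 d and 0 and 2 reads in HVC at 45 d, against 28 reads in WB at 100 d and 34 reads in WB at 45 d. The ratio of HVC to WB was 0.162 at 100 d (exact 95% counting interval 0.0314 to 0.523) and 0.0533 at 45 d (0.00621 to 0.208), and the edgeR adjusted p was 0.50 at 100 d and 0.0190 at 45 d. The third glycine receptor subunit, *GLRA4*, was listed for WB only.

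Among the cation channels opened by acetylcholine or ATP, the subunits differed in direction. *CHRNA4* (chromosome 20, 9559992-9578878), which in mammals forms the common high-affinity brain nicotinic receptor, had 19.8 and 12.8 normalised reads in HVC at 45 d, against 69.1 in WB at 45 d. This was a log2 fold change of -2.09 ± 0.50 (SE, edgeR adjusted p = 0.0110), and HVC at 100 d stood at 28.0 with no WB value listed. *CHRNA7* (chromosome 10, 6314127-6348767), the subunit of a calcium-permeable homomeric receptor, had 166 normalised reads in HVC at 100 d and 139 and 242 in HVC at 45 d, against 85.6 in WB at 100 d and 92.2 in WB at 45 d. All HVC libraries were above both WB libraries, yet neither the log2 fold change of 0.95 ± 0.42 at 100 d nor that of 1.05 ± 0.36 at 45 d (SE) was called (edgeR adjusted p = 0.361 and 0.108).

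*CHRNA3*, *CHRNB3* and the P2X receptors were not called in the quasi-likelihood test or had no such fit. *CHRNA3*, a ganglionic and habenular alpha subunit in mammals, had 57 reads in HVC and 39 in WB at 100 d (25.9 normalised reads in WB), with no call in the exact test (edgeR adjusted p = 0.398). *CHRNB3*, an accessory subunit, had 2 and 3 reads in HVC and 19 in WB at 45 d (edgeR adjusted p = 0.429). *P2RX4* had 8 normalised reads in HVC at 100 d and 0 and 4.58 in HVC at 45 d, against 7.96 in WB at 100 d and 15.5 in WB at 45 d. Its HVC and WB levels overlapped, and at 45 d it was not called in the quasi-likelihood test (edgeR adjusted p = 0.151). The exact test and the fit with no filter on low counts did call it as lower in HVC (edgeR adjusted p = 0.0104 and 0.0903). *P2RX5* had 24 reads in HVC and 8 in WB at 100 d, a log2 fold change of 2.15 ± 0.91 that was not called (SE, edgeR adjusted p = 0.326).

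The glutamate receptors were measured mainly at single ages. At 100 d the obligatory NMDA receptor subunit *GRIN1* had 1287 normalised reads in HVC and 635 in WB, the AMPA receptor subunit *GRIA4* had 1427 in HVC and 2397 in WB, and neither was called by the exact test (edgeR adjusted p = 0.318 and 0.627). No 45 d HVC reads were listed for either, so no quasi-likelihood fit could be made. *GRM2*, a presynaptic group II metabotropic receptor that lowers cyclic AMP, had 236 normalised reads in HVC and 130 in WB at 100 d (log2 fold change 0.86 ± 0.40, SE, edgeR adjusted p = 0.472).

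**Figure D2:**
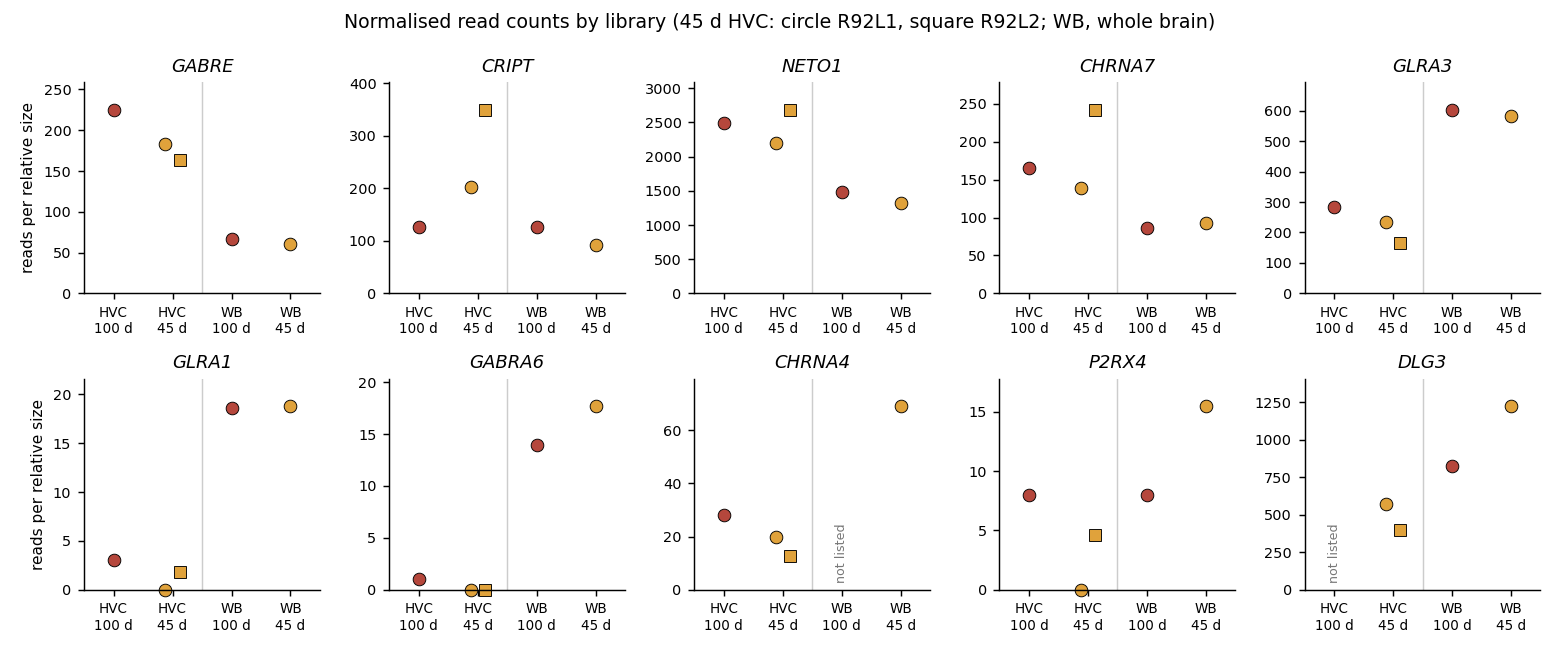
Normalised reads of 10 members in each library, from left to right HVC at 100 d, HVC at 45 d (circle R92L1, square R92L2), WB at 100 d and WB at 45 d, on linear axes that start at 0 and differ between panels. *GABRE*, *CHRNA7* and *NETO1* are higher in every HVC library than in both WB libraries, *GABRA6*, *GLRA1* and *GLRA3* are lower, and *CRIPT* at 126 in HVC at 100 d is level with WB at 100 d.

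Of the scaffold and auxiliary genes, *CRIPT* and *DLG3* were called at 45 d, in opposite directions. *CRIPT* (chromosome 3, 18101619-18106692) encodes a small protein that binds a PDZ domain of PSD-95 and links it to microtubules. It had 126 normalised reads in HVC at 100 d and 202 and 349 in HVC at 45 d, against 126 in WB at 100 d and 91.7 in WB at 45 d. The log2 fold change of HVC over WB was -0.00 ± 0.40 at 100 d (SE, edgeR adjusted p = 1) and 1.59 ± 0.37 at 45 d (SE, edgeR adjusted p = 0.00687). The 45 d HVC libraries were 1.73-fold apart, and the log2 fold change at 45 d was 1.14 without R92L2 and 1.93 without R92L1, with no test possible in either case.

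*DLG3* (chromosome 4A, 20148615-20197922), the DLG scaffold that binds NMDA receptors early in mammalian development, had 571 and 399 normalised reads in HVC at 45 d, against 1223 in WB at 45 d and 825 in WB at 100 d. Its log2 fold change at 45 d was -1.34 ± 0.30 (SE, edgeR adjusted p = 0.00482). *DLG2*, *DLG5* and *DLGAP2* were below WB in both 45 d HVC libraries as well, with log2 fold changes between -0.84 and -0.69, and were not called (edgeR adjusted p between 0.128 and 0.249). These 3 values lay close to the median over all 1928 transcripts, -0.69.

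*NETO1* (chromosome 2, 97858703-97917222), an auxiliary subunit of kainate receptors, had 2490 normalised reads in HVC at 100 d and 2199 and 2684 in HVC at 45 d, against 1488 in WB at 100 d and 1325 in WB at 45 d. All HVC libraries were higher, but the log2 fold changes of 0.74 ± 0.35 at 100 d and 0.88 ± 0.33 at 45 d (SE) were not called (edgeR adjusted p = 0.474 and 0.141). *DLGAP3*, which joins DLG scaffolds to SHANK proteins, had 6 reads in HVC and 0 reads in WB at 100 d. This was 3.01-fold higher in HVC over a floor of 3 reads, and the exact 95% counting interval of the ratio began at 1.77. *GRIP2*, a PDZ protein that binds AMPA receptors, had 84 reads in HVC and 58 in WB at 100 d. Neither *DLGAP3* nor *GRIP2* was called by the exact test (edgeR adjusted p = 0.304 and 0.363).

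Of the 9 members with all 5 libraries, 7 had HVC levels that did not overlap WB levels, 3 higher (*GABRE*, *CHRNA7* and *NETO1*) and 4 lower (among them *GABRA6*, *GLRA1* and *GLRA3*). The same was true of 73.4% of all 1205 transcripts with 5 libraries, 30.2% higher and 43.2% lower, so the members' share was near that of the tables as a whole. The exact test called 9 of the 17 members at 45 d, with 39.4% of all 2086 transcripts called, and 2 of the 16 at 100 d (*GABRE* and *GABRA6*), with 17.5% of all 2076 called.

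The direction of the tissue calls rested in part on how the libraries were scaled. Scaling by TMM, relative log expression or the sum of listed reads moved the median log2 fold change of all transcripts by 0.30, 0.55 and 0.34 at 45 d and by 0.33, 0.37 and 0.52 at 100 d, toward HVC. Of the calls, 40.1% were in the direction of HVC at 45 d and 43.7% at 100 d, and this became 68.7% to 84.1% at 45 d and 78.7% to 88.7% at 100 d under these scalings. *GABRE* at both ages and *CRIPT* at 45 d were called under all of them. *GABRA6* and *GLRA3* at 45 d lost the call only under the sums, *CHRNA4* and *GLRA1* under the sums and TMM, and *DLG3* under all 3. *GLRA3* at 100 d also lost the call under all 3, whereas *CHRNA7* and *NETO1* at 45 d gained one under relative log expression. Under DESeq2 the only member called was *GLRA3* at 45 d.

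Markers of other brain regions moved with the members that were lower in HVC. Cerebellar markers were lower in 5 of 7 tested at 45 d and 5 of 5 at 100 d. Of all transcripts tested, 22.4% were called as lower at 45 d and 13.8% at 100 d. The 6 with all libraries (*FAT2*, *PAX6*, *RORA*, *UNC13C-1*, *ZIC1* and *ZIC4*) summed to 377 normalised reads in HVC at 100 d and 256 and 374 in HVC at 45 d, against 3672 in WB at 100 d and 3784 in WB at 45 d. Thalamic, tectal and habenular markers were lower in 3 of 3 at each age, with sums of 113 in HVC at 100 d and 75.0 and 77.9 in HVC at 45 d, against 534 and 507 in WB at 100 d and 45 d.

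Of the brain stem markers, *TFAP2B* alone had all libraries, with 1 normalised read in HVC at 100 d and 0 and 1.83 in HVC at 45 d, against 13.9 and 8.29 in WB at 100 d and 45 d, and was not called. Oligodendrocyte markers were lower in 1 of 2 at 100 d and 3 of 3 at 45 d, and the choroid plexus marker *TTR-1* was lower at both ages. *NEUROD6*, a marker of pallial neurons, had 238 normalised reads in HVC at 100 d and 534 and 487 in HVC at 45 d, against 212 and 304 in WB at 100 d and 45 d, and was not called. Of the striatal markers *TAC1* was higher in HVC at 100 d only, the astrocyte marker *AQP4* was not called, and no microglial marker was listed. The part of these cell sources in the receptor differences was not tested.

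Other genes of the same synapses were counted from lists of partners, transmitter supply and downstream enzymes. At 45 d, 11 listed auxiliary, anchoring and adhesion partners were tested, and *NPTXR*, a receptor for neuronal pentraxins, was higher in HVC (log2 fold change 1.78) while *NRXN3-2* (-3.73) and *LIN7A* (-1.44) were lower. At 100 d, 1 of 6, *LIN7A* (-1.22), was lower. Of 6 genes of transmitter synthesis, uptake and breakdown at 45 d, *SLC1A4* was higher (1.34) and *SLC5A7*, *SLC1A6*, *CHAT* and *BCHE* were lower. *CHAT* makes acetylcholine and *SLC5A7* takes up its precursor choline. At 100 d 0 of 6 were called. Of the calcium and kinase targets, 3 of 5 tested were lower in HVC at 45 d, among them *PLCB4* (-1.78) and *CAMK4* (-1.02), and *PLCB4* (-1.86) was the 1 tested and lower at 100 d. Of all transcripts tested between the tissues, 37.3% were called at 45 d and 24.5% at 100 d. No gene of these 3 lists was called between the ages in either tissue.

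The second question was how receptor and scaffold genes differ between 100 d and 45 d. In HVC, 0 of the 12 members tested were called, with 0 of 2150 transcripts (0%) called in all by the edgeR quasi-likelihood test. At an unadjusted p under 0.05 there were 3 members (*GRM3*, *CRIPT* and *GABRB1-1*) and 452 transcripts. DESeq2 called 2 transcripts and the exact test 37 of 2512 (1.47%), with 0 members among them. The paper's own edgeR analysis of HVC between these ages did report changed genes at a q under 0.1. Of the 12 members, 9 had a log2 fold change above 0, against 50.7% of all transcripts, and the median was 0.45 over the members and 0.02 over all. In WB, 0 of 11 members and 6 of 1318 transcripts (0.455%) were called. There 0 members and 98 transcripts had an unadjusted p under 0.05, DESeq2 called 0 transcripts, and the exact test called 0 of 17 members and 15 of 2504 transcripts (0.599%).

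**Figure D3:**
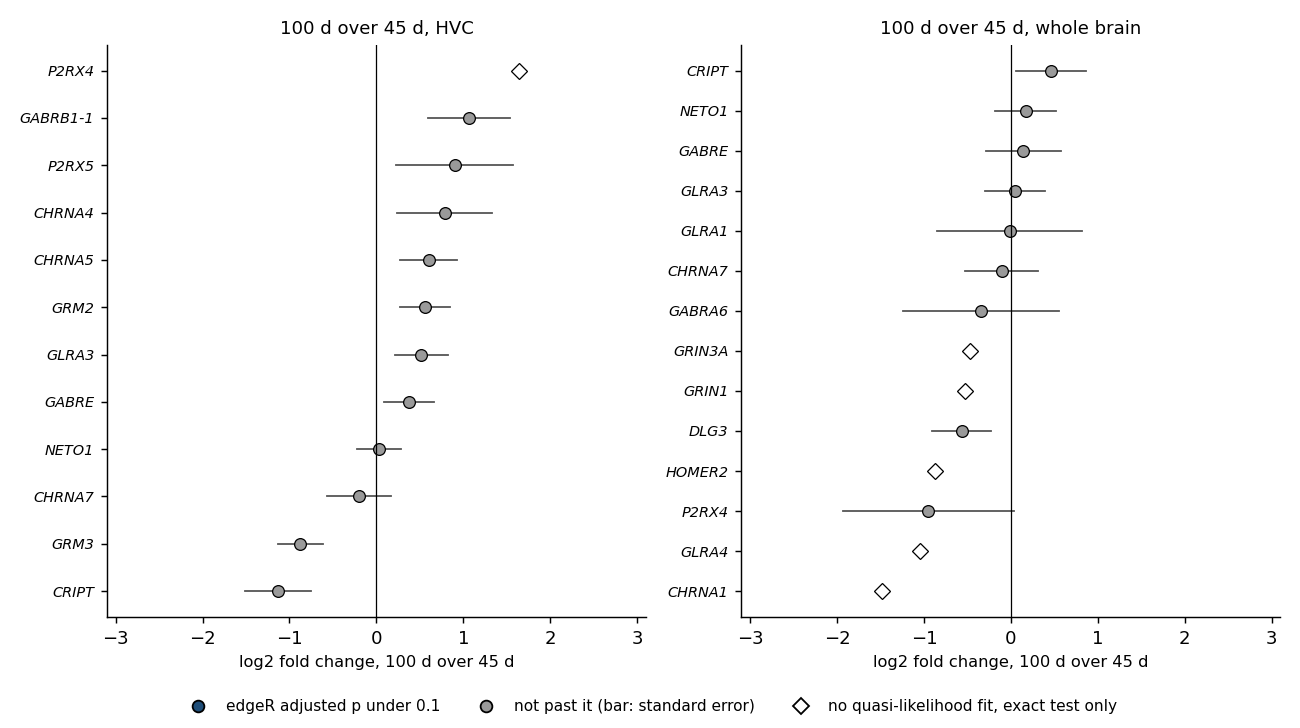
Log2 fold change of 100 d over 45 d in HVC (left) and WB (right), with circles and standard error bars for the quasi-likelihood fit and open diamonds for members placed at the fold change of the exact test alone. No member was called; *DLGAP5*, *GABRA6* and *GLRA1* are left out in HVC because a group had 0 reads or both had at most 3, and *CRIPT* is lowest in HVC at -1.13 and highest in WB at 0.46.

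The members with the smallest p-values between the ages in HVC were 2 that were lower at 100 d and 1 that was higher. *GRM3*, a group II metabotropic glutamate receptor found on neurons and astrocytes, had 976 normalised reads in HVC at 100 d, against 1700 and 1881 in HVC at 45 d (log2 fold change -0.88 ± 0.26, SE, edgeR adjusted p = 1). *CRIPT* had a log2 fold change of -1.13 ± 0.38 (SE, edgeR adjusted p = 1), and *GABRB1-1*, with 56.0 normalised reads at 100 d against 20.9 and 32.1 at 45 d, one of 1.07 ± 0.47 (SE, edgeR adjusted p = 1). In each of these the 100 d library lay outside the range of the 45 d pair, but they were picked for their small p-values. The share of all transcripts that lay so was not counted, so this does not set these members apart. By RT-qPCR in HVC, the paper reported a significant change of *CRIPT* between these ages.

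*CHRNA5*, whose gene lies 5.51 kb from *CHRNA3* on the opposite strand, had 182 normalised reads in HVC at 100 d, against 98.1 and 141 at 45 d, and *GRM2* had 236, against 156 and 164 (edgeR adjusted p = 1 for both). The log2 fold changes of *GLRA3*, *GABRE*, *P2RX5* and *CHRNA4* lay between 0.38 and 0.90, and those of *NETO1* and *CHRNA7* at 0.03 and -0.20. The value of *P2RX5* was 1.88 without R92L1 and 0.27 without R92L2, that of *NETO1* was -0.11 without R92L1, and that of *CHRNA7* was 0.26 without R92L2. The spindle gene *DLGAP5* had 0 reads in HVC at 100 d, against 4 and 5 reads at 45 d, 1.5-fold lower over a floor of 3 reads. The exact 95% counting interval of its ratio of 100 d to 45 d was 0 to 1.01, which includes no difference. The exact test did not call it. *DLGAP5*, *GABRA6*, *GLRA1* and *P2RX4* did not pass the filter on low counts in this comparison.

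In WB, the members listed with the 2 ages alone all had fewer normalised reads at 100 d, and none was called. *HOMER2*, which binds group I metabotropic receptors, had 54.4 normalised reads at 100 d and 99.4 at 45 d, and *GRIN3A*, a modulatory NMDA receptor subunit, 118 at 100 d and 163 at 45 d. *GLRA4* had 12 reads at 100 d and 30 at 45 d, and *CHRNA1*, the muscle-type alpha subunit, 5 and 17. *GRIN1* had 635 normalised reads at 100 d and 919 at 45 d. *DLG3* had a log2 fold change of -0.57 ± 0.34 (SE, edgeR adjusted p = 1), and the median was -0.02 over the 11 members with this fit and -0.03 over all 1318 transcripts. In the exact test, which takes in the members without 45 d HVC reads, the median was -0.47 over 17 members and -0.09 over all 2504 transcripts. Of the 17 members, 12 lay below 0 and 5 above, while 46.2% of all transcripts lay above 0.

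The third question was whether the age difference depends on tissue, taken as the log2 fold change of 100 d over 45 d in HVC minus that in WB. Of the 9 members with all libraries 0 were called, with 4 of 1177 transcripts (0.340%) called in all by the edgeR quasi-likelihood test. At an unadjusted p under 0.05 there were 1 member and 96 transcripts, and DESeq2 called 0. The member was *CRIPT*, with a difference of -1.59 ± 0.53 (SE, edgeR adjusted p = 1), from -1.13 in HVC and 0.46 in WB. The differences of *GABRE*, *GLRA3*, *CHRNA7* and *NETO1* lay between -0.14 and 0.47, each close to or below its standard error. *P2RX4* and *GLRA1* had differences of 2.61 ± 1.48 and 1.52 ± 1.71 (SE) that rest on at most 8 reads in any HVC library, and *GABRA6* gives no value because it had 0 reads in HVC at 45 d. Of the listed genes, *SLC5A7* of the transmitter list and the striatal marker *TAC1* were called in this test (edgeR adjusted p = 0.0206 and 0.0525). Both differences were above 0, and that of *TAC1* was 4.08 ± 0.95 (SE).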

How the data were processed

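RNA from HVC and WB was made into libraries with the NuGEN Ovation V1 kit, and the authors mapped reads to taeGut1 with ELAND2. Whether counting used strand is not given in the sources used here. The deposited tables hold raw counts per Ensembl transcript, the authors' log2 fold changes and the authors' p-values and q-values, for 1800 transcripts per comparison. Relative library sizes were solved from the log2 fold change columns, since listed counts do not give depth. The p-value columns served only to recover how many transcripts were tested, namely 11507 (tissues, 45 d), 10859 (tissues, 100 d), 11258 (HVC ages) and 11101 (WB ages). No values of those columns are reported.

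Counts were fitted with edgeR 4.0.16 (glmQLFit and glmQLFTest, filterByExpr, 1 mean per group) for transcripts listed with the compared libraries and also with the 45 d HVC pair, which gives the residual spread. Benjamini-Hochberg adjustment used the numbers above (11507 for age by tissue), with calls at an adjusted p under 0.1. In the comparisons at 100 d, in WB and of age by tissue the prior degrees of freedom were infinite, so the trend over transcripts set the spread. Standard errors are the absolute log2 fold change over the square root of F. Members without such a fit were tested with edgeR's exact test at a common dispersion of 0.0477 from the pair. Alternatives used DESeq2 1.42.0, limma 3.58.1, other scalings, no filter, an additive model and a stricter threshold. The procedure was also run on counts simulated at this common dispersion with the same library sizes. That run did not cover the ranked choice of listed transcripts or the scaling, and no result here rests on it.

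The members and the lists (receptor partners, transmitter supply, calcium and kinase targets, and cell type markers) were chosen with earlier results of these data known. Some genes that matched the rule or a list are counted but not reported here. Reads are given for those that were called or whose call changed with scaling, and the lists are given as counts with up to 4 called genes named.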

Additional observations from a re-analysis of the deposited data

How the results depend on the processing

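The number of tissue calls changes with the scaling and with the test, and all groups but 1 are single libraries, so the spread rests on the 45 d HVC pair. Members called at 45 d in HVC over WB were 8 of 17. Of the same 17 they numbered 4 under TMM, 2 under the sums of listed counts, 13 with no filter and 1 under DESeq2. Under an additive model of tissue and age they were 5 of 9. At 100 d they were 2, and numbered 1 under TMM, relative log expression, the sums, limma-voom and an adjusted p under 0.05, 0 under DESeq2 and 5 of 9 under the additive model, where both ages share 1 tissue term. The causes were not tested beyond this construction.

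Over all transcripts, 720 of 1928 were called at 45 d, against 316 (TMM), 228 (sums) and 124 (DESeq2) of the same 1928. With no filter 877 of 2086 were called, and under the additive model 583 of 1177. At 100 d 334 of 1361 were called, against 75 (TMM), 164 (relative log expression), 231 (sums), 35 (DESeq2) and 212 (limma-voom). An adjusted p under 0.05 left 246 of the 1361, and the additive model called 606 of 1177. Between the ages in HVC, 0 calls compare with 14 (no filter), 2 (DESeq2) and 37 (exact test). In WB, 6 calls compare with 0 (relative log expression, sums, DESeq2, additive model), 1 (limma-voom) and 15 (exact test), and for age by tissue 4 compare with 0 (TMM, sums, DESeq2) and 1 (limma-voom). No member was called in any of these age tests.

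The sign changed for no called value. *CRIPT* in HVC over WB at 100 d was 0.33 (TMM), 0.37 (relative log expression), 0.52 (sums), 0.00093 (limma-voom) and 0.90 (additive model). For the ages, *NETO1* in HVC was -0.0043 (relative log expression), and in WB *GLRA1* was 0.0061 (TMM), 0.063 (relative log expression) and 0.38 (additive model), *GLRA3* -0.065 (sums), *CRIPT* -0.42 and *P2RX4* 0.22 (additive model). For age by tissue, *CHRNA7* was 0.0017 (relative log expression) and 0.16 (sums) and *NETO1* 0.12 (sums). Without R92L2, *GLRA1* had 0 reads in HVC at 45 d. Leaving out either 45 d HVC library turned no called value, but turned *CHRNA7* (0.26 without R92L2) and *NETO1* (-0.11 without R92L1) for the ages in HVC, and for age by tissue *CHRNA7* (0.36), *NETO1* (0.012) and 1 further member, all without R92L2.

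No paired analysis was possible because only HVC at 45 d has more than 1 library, so the groups share fewer than 2 replicate numbers. A group at 0 to 3 reads (*GABRA6*, *GLRA1*, *DLGAP3*, *DLGAP5*) gives only bounds or wide intervals at this depth.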
